A study of Canis lupus familiaris with 3 samples.

Results

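TGF-beta and BMP pathway genes were examined in MDCK cells, which are kidney epithelial cells of the dog, transfected with E47. This protein, a product of the gene TCF3, is a helix-loop-helix factor that binds DNA. The 7 genes are LTBP1, LTBP3, BMP4, ACVR1, ENG, SMAD2 and SMAD5, out of 5508 named genes tested. They were found as the rows of the array whose single gene symbol is one of these names, which gave 20 spots of 10 human cDNA clones. The genes had been picked with their ratios known: each of the 7 passed a limma test at an adjusted p under 0.05, which 9.19% of all named genes did, so their ratios are given here as a description and were not tested.

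RNA of E47 transfectants was hybridised against RNA of the MDCK-CMV control cells on 3 two-colour arrays. Extraction 1 of the E47 cells was used on 1 array, labelled with Cy5. Extraction 2 was used on 2 arrays as a dye swap, with the E47 RNA in Cy3 on one and in Cy5 on the other. Both kinds of cells were grown in the same serum-containing medium, and the labels give neither the vector of the control nor whether the extractions come from separate cultures or clones.

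TGF-beta is secreted in a latent complex that latent binding proteins anchor in the extracellular matrix. Once free, TGF-beta and the related BMPs bring together type I and type II receptor kinases, which phosphorylate SMAD2 and SMAD3 in the TGF-beta branch and SMAD1, SMAD5 and SMAD9 in the BMP branch. In epithelial cells TGF-beta is a textbook inducer of the epithelial to mesenchymal transition.

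Every value below is a log2 ratio of E47 over control, as the authors deposited it for each spot. That direction is likely and not stated: each label lists the E47 cells as the first channel, and the series title calls E47 a repressor of E-cadherin, whose gene CDH1 was at −3.52, −3.83 and −3.47 on the 3 arrays. TCF3, the gene of E47, does not bear the direction out: it was at −0.27, −0.28 and −0.35, with a mean of −0.29 and a limma adjusted p of 0.118, below 0 on every array of the cells labelled E47. Whether its clones can bind the introduced cDNA is not known here. The log base is not stated either and was read as 2. Read as natural logarithms, the mean changes of the 7 genes would lie between 1.77-fold and 3.38-fold. A gene's mean is that of the 2 extractions, after the dye swap was averaged, and its error is the SD between them (n = 2). The extraction outside the dye swap was read with E47 in Cy5 alone, so a dye effect is not fully averaged out of the mean. Such an effect also enters the difference between the extractions, and so the SD. The p-values of the fit measure only this spread between extractions, a gene's own and, with more weight, that shared over all features. They leave out the spread of the control, which served as the shared reference. No channel intensities were used, so how bright a spot was is unknown, and ratios give no level of any gene.

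Averaged over spots, 6 of the 7 genes had ratios above 0 and ENG had ratios below 0, each on all 3 arrays. For LTBP3 this holds for the average alone, since 1 of its 2 clones was below 0 on every array. Of all named genes, 30.6% were above 0 on all 3 arrays and 32.8% were below. Their median was 0.80, against −0.02 over all named genes. From the highest mean to the lowest the order was LTBP1 at 1.22, SMAD5 at 1.15, ACVR1 at 1.00, LTBP3 at 0.80, SMAD2 at 0.71, BMP4 at 0.57 and ENG at −0.94. From LTBP1 down to BMP4, each gene differed from the next by less than the larger SD between extractions of the pair. The order of neighbours is therefore not resolved. LTBP1 and SMAD5 differed from BMP4 by more than the SD of any of these genes, and ENG lay apart from the others.

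**Figure D1:**
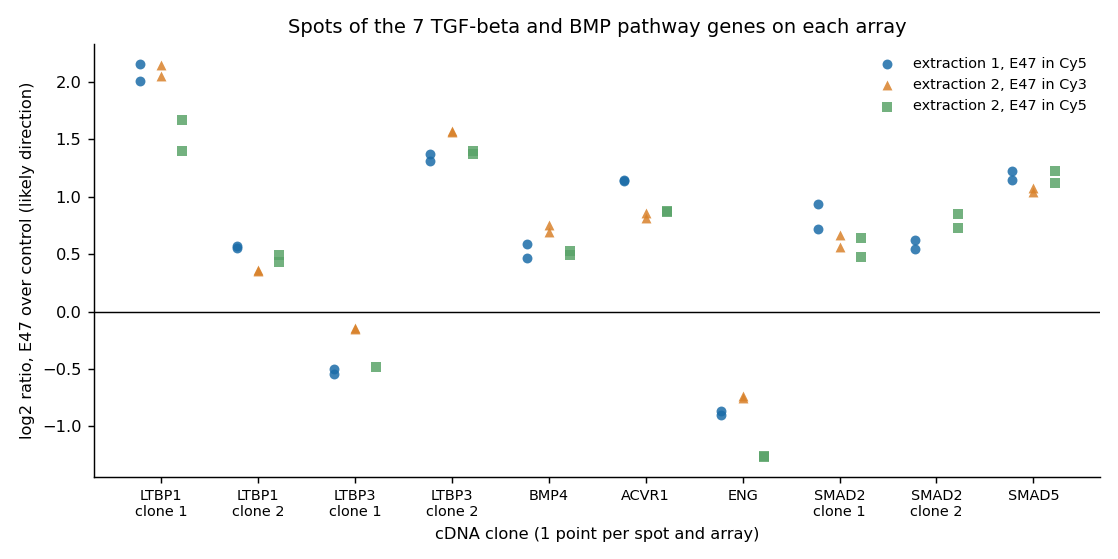
Log2 ratio of E47 over control (vertical axis) for each spot of the 10 clones (horizontal axis), with 1 marker shape and colour per array. The clones of LTBP1 stand apart at means of 1.95 and 0.49, and those of LTBP3 lie on opposite sides of 0, while the spots of each clone lie close together.

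LTBP1, a latent TGF-beta binding protein of the extracellular matrix, was higher in E47 cells on both of its clones. The 2 spots of clone 1 (spots 11319 and 11320) were at 2.16 and 2.01 in extraction 1, at 2.05 and 2.15 in extraction 2 with Cy3, and at 1.67 and 1.39 in extraction 2 with Cy5. Those of clone 2 (spots 25973 and 25974) were at 0.56 and 0.57, at 0.36 and 0.36, and at 0.43 and 0.49, in the same order of arrays. No spot of clone 2 reached the lowest spot of clone 1 on any array. The clone means were 1.95 ± 0.19 and 0.49 ± 0.11 (SD, n = 2 extractions), which are 3.86-fold and 1.40-fold. The gap between the clones was 1.46, and the largest gap between the 2 spots of one of its clones was 0.27. Averaged over its 4 spots, LTBP1 was at 1.32, 1.23 and 1.00 on the 3 arrays, with a mean of 1.22 ± 0.15, or 2.33-fold. The size of its change therefore rests on which clone is read, and its sign does not.

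LTBP3, another latent binding protein, differed in sign between its clones. The 2 spots of clone 2 (spots 27529 and 27530) were at 1.37 and 1.32 in extraction 1, at 1.57 and 1.57 in extraction 2 with Cy3, and at 1.37 and 1.40 in extraction 2 with Cy5. Clone 1 (spots 21617 and 21618) was at −0.50 and −0.55, at −0.14 and −0.15, and at −0.48 on the 1 spot with a value on the last array. All spots of clone 2 were above 0 and all values of clone 1 below it. The clone means were 1.41 ± 0.09, or 2.66-fold higher in E47 cells, and −0.42 ± 0.15 (SD, n = 2 extractions), or 1.34-fold lower. The gene mean of 0.80 ± 0.11 takes 2 spots of clone 2 and the 1 spot of clone 1 with a value on every array, so it leans to clone 2. With the clones weighted equally it was 0.50, and with the median over spots 1.39. These clones give LTBP3 no common direction.

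Disagreement of this size was uncommon among genes measured by a pair of clones. Over 883 such genes the median gap between the clones was 0.24. The gap of LTBP1, at 1.46, was larger than that of 95.7% of them, and the gap of LTBP3, at 1.82 from spots with a value on every array, larger than that of 97.5%. Clones of opposite sign as such were frequent, in 311 of the 883 genes (35.2%). The arrays hold human clones and the RNA is from dog, so a clone can bind a related dog transcript, and which transcript each clone bound was not tested.

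**Figure D2:**
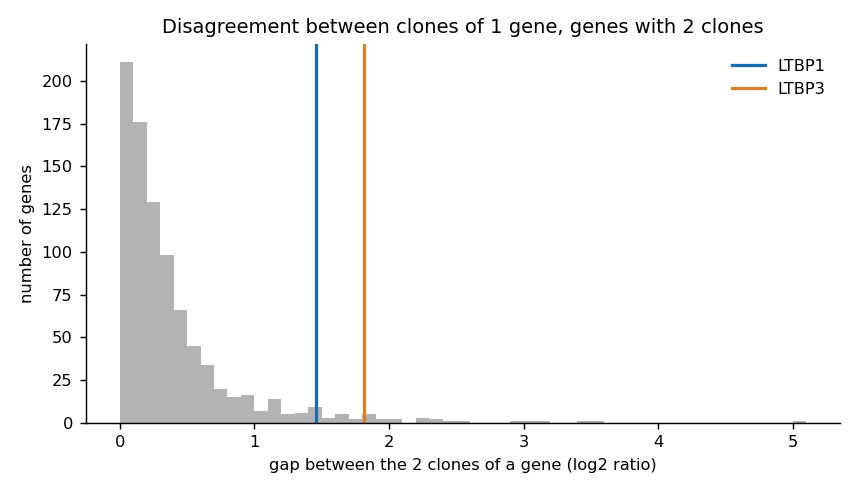
Number of genes (vertical axis) by the gap in log2 ratio between their 2 clones (horizontal axis), for the 883 genes with 2 clones and values on every array. The lines mark LTBP1 at 1.46 and LTBP3 at 1.82, beyond most of the genes.

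The other genes of latent binding and activation did not pass the test. The list of the pathway named 8 genes with this role, all on the array and all tested, of which the 2 LTBP genes above passed. LTBP4, which also binds latent TGF-beta, was at −1.0 in extraction 1 and at −0.03 and −0.26 in extraction 2 with Cy3 and Cy5. Its extractions differed by more than those of LTBP1, with a mean of −0.58 ± 0.61 (SD, n = 2) and a limma adjusted p of 0.193. LTBP2 was at 0.01, and the proteases FURIN and BMP1, which process precursors of the family, were at −0.33 and −0.26. THBS1, thrombospondin-1, which can release TGF-beta from its latent complex, was at −0.43. Here and below, genes named without a call were chosen after their values were seen, except for NBL1 and SKI.

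BMP4, a ligand of the BMP branch, was moderately higher in E47 cells. Its 2 spots (8747 and 8748) were at 0.59 and 0.47 in extraction 1, at 0.70 and 0.75 in extraction 2 with Cy3, and at 0.50 and 0.53 in extraction 2 with Cy5. All 6 values were above 0, and the Cy3 array gave the highest. The mean was 0.57 ± 0.06 (SD, n = 2 extractions), or 1.49-fold, the smallest in size of the 7 genes. BMP4 lies just inside the threshold of the limma fit, with an adjusted p of 0.0478 that is given as a description, and SMAD7 at 0.48, with an adjusted p of 0.0609, lies just outside it.

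No other ligand passed the test. Of 33 ligands listed, 20 were on the array and 17 had a value on every array, and the 16 besides BMP4 ran from −0.33 to 0.49, with a median of 0.02. TGFB2, one of the TGF-beta ligands, was nearest to BMP4, at 0.60, 0.50 and 0.26 on the 3 arrays. Its mean was 0.49 ± 0.16 (SD, n = 2), with a limma adjusted p of 0.0761. The 3 clones of TGFB2, with every spot kept, were at 0.83, 0.41 and 0.23, the first above the 0.57 of BMP4. BMP2 and BMP7, further BMPs of epithelial and mesenchymal tissues, were at 0.28 and 0.17, and TGFB3 was at 0.13. TGFB1, the ligand most used to induce the epithelial to mesenchymal transition in culture, had values on the Cy3 array alone, at 0.14 and −0.05 on its 2 spots, and was not tested.

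ACVR1, a type I receptor for BMPs also known as ALK2, was higher in E47 cells on every spot. Spots 1897 and 1898 were at 1.14 and 1.14 in extraction 1, at 0.81 and 0.86 in extraction 2 with Cy3, and at 0.88 and 0.87 in extraction 2 with Cy5. The arrays of extraction 2 lay close together, and that of extraction 1 lay above both. The mean was 1.00 ± 0.20 (SD, n = 2 extractions), or 2.0-fold. Its difference of 0.28 between the extractions was larger than that of 81.0% of the named genes, whereas its difference between the dyes, 0.04, was larger than that of only 12.1%.

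ENG, endoglin, a co-receptor that is best known from endothelial cells, had ratios below 0 throughout. Spots 12279 and 12280 were at −0.87 and −0.90 in extraction 1, at −0.75 and −0.73 in extraction 2 with Cy3, and at −1.25 and −1.27 in extraction 2 with Cy5. The spots of an array nearly coincided, and the dye swap of the same RNA was spread more widely than the extractions. The mean was −0.94 ± 0.08 (SD, n = 2 extractions), or 1.92-fold lower in E47 cells. It leans to Cy5, the only E47 dye of extraction 1, and was −0.81 without the Cy5 array of extraction 2. The ratio with Cy5 was lower than that with Cy3 by 0.52, a larger dye difference than in 93.0% of the named genes, so the SD between extractions understates the spread of ENG between arrays. Markers of endothelial cells did not pass the test in either direction: of 8 listed, 6 were tested, with ratios from −0.34 to 0.38 and a median of 0.06.

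**Figure D3:**
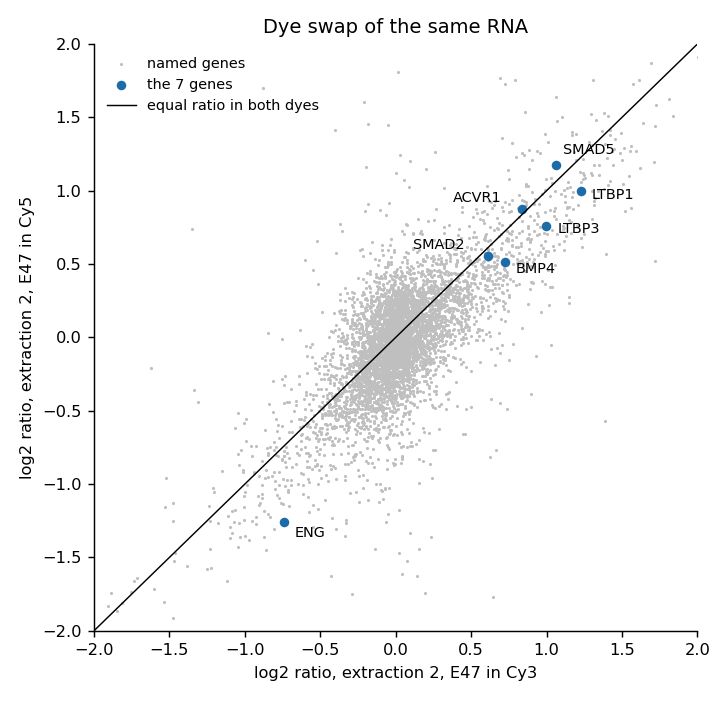
Log2 ratio of each named gene in extraction 2 with E47 in Cy3 (horizontal axis) and in Cy5 (vertical axis), where the line marks equal ratios and 46 genes lie outside the plotted range of 2 in either direction. The 6 genes with a mean above 0 lie near the line, at dye differences of up to 0.24, and ENG lies below it.

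The receptors beside ACVR1 and ENG had smaller ratios and did not pass the test. The other 7 of the 9 receptors and co-receptors tested ran from −0.40 to 0.42. TGFBR1, the type I receptor for TGF-beta, was at 0.46, 0.33 and 0.43 on the 3 arrays, and TGFBR2, its type II partner, at −0.31, −0.44 and −0.52. These 2 receptors of the same complex had opposite signs on every array, with limma adjusted p-values of 0.0742 and 0.0924. TGFBR3, a co-receptor, was at 0.41, BMPR2, a type II receptor for BMPs, at −0.21, and ACVR2B at 0.14. BMPR1B, a type I receptor for BMPs, was at −0.40 with Cy3 and at 1.41 with Cy5 in extraction 2, so the dye swap of the same RNA gave opposite signs.

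SMAD2, the signal transducer of the TGF-beta and activin branch, was higher in E47 cells on both of its clones. Spots 15081 and 15082 of clone 1 were at 0.94 and 0.72 in extraction 1, at 0.56 and 0.66 in extraction 2 with Cy3, and at 0.47 and 0.64 in extraction 2 with Cy5. The mean of clone 1 was 0.71 ± 0.17 (SD, n = 2 extractions), or 1.63-fold. Clone 2 had no value on the Cy3 array, so it did not enter the fit from which the gene was picked. Its spots 27041 and 27042 were at 0.55 and 0.62 in extraction 1 and at 0.73 and 0.85 in extraction 2 with Cy5, with a mean of 0.69 ± 0.14 (SD, n = 2 extractions). The clones thus overlapped, in contrast to those of LTBP1 and LTBP3. Clone 1 had its higher ratio in extraction 1, and clone 2 in extraction 2. Both clones were read on the same RNA, so clone 2 is no further replicate of the cells.

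SMAD5, a signal transducer of the BMP branch, varied least between extractions among the 7 genes. Spots 21941 and 21942 were at 1.23 and 1.14 in extraction 1, at 1.04 and 1.08 in extraction 2 with Cy3, and at 1.22 and 1.12 in extraction 2 with Cy5. All 6 values lay between 1.04 and 1.23. The mean was 1.15 ± 0.05 (SD, n = 2 extractions), or 2.22-fold.

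The SMADs closest in sequence and role did not follow them. SMAD1, which acts beside SMAD5 in the BMP branch, was at −0.07, 0.04 and 0.03 on the 3 arrays, and SMAD3, which acts beside SMAD2, was at −0.16, −0.06 and −0.14. Both genes had clones of opposite sign. For SMAD1, spots 13173 and 13174 lay between 0.18 and 0.30, whereas every value of its other spots was below 0. For SMAD3, the clone in the fit had a mean of −0.13, and the clone of spots 25 and 26, left out of the fit, 0.13. The highest clone means, 0.24 for SMAD1 and 0.13 for SMAD3, lay below those of SMAD5 and SMAD2. SMAD4, the partner shared by both branches, was at −0.17 ± 0.06 (SD, n = 2). None of the 3 passed the test, with limma adjusted p-values of 0.900, 0.346 and 0.250, and the differences between these SMADs and SMAD2 or SMAD5 were not tested. The inhibitory SMAD7, a target of the pathway as well, was at 0.45, 0.40 and 0.60. SMAD6, the inhibitor of the BMP branch, had clones that disagreed. Its spots 1217 and 1218 lay between 0.67 and 0.73 on the 3 arrays, whereas spots 20201 and 20202 were at −2.48 and −2.42 in extraction 1, at 0.98 and 0.36 in extraction 2 with Cy3, and at −2.14 and −2.33 in extraction 2 with Cy5. The sign of the last clone turned with the dye, and no direction can be given for SMAD6.

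**Figure D4:**
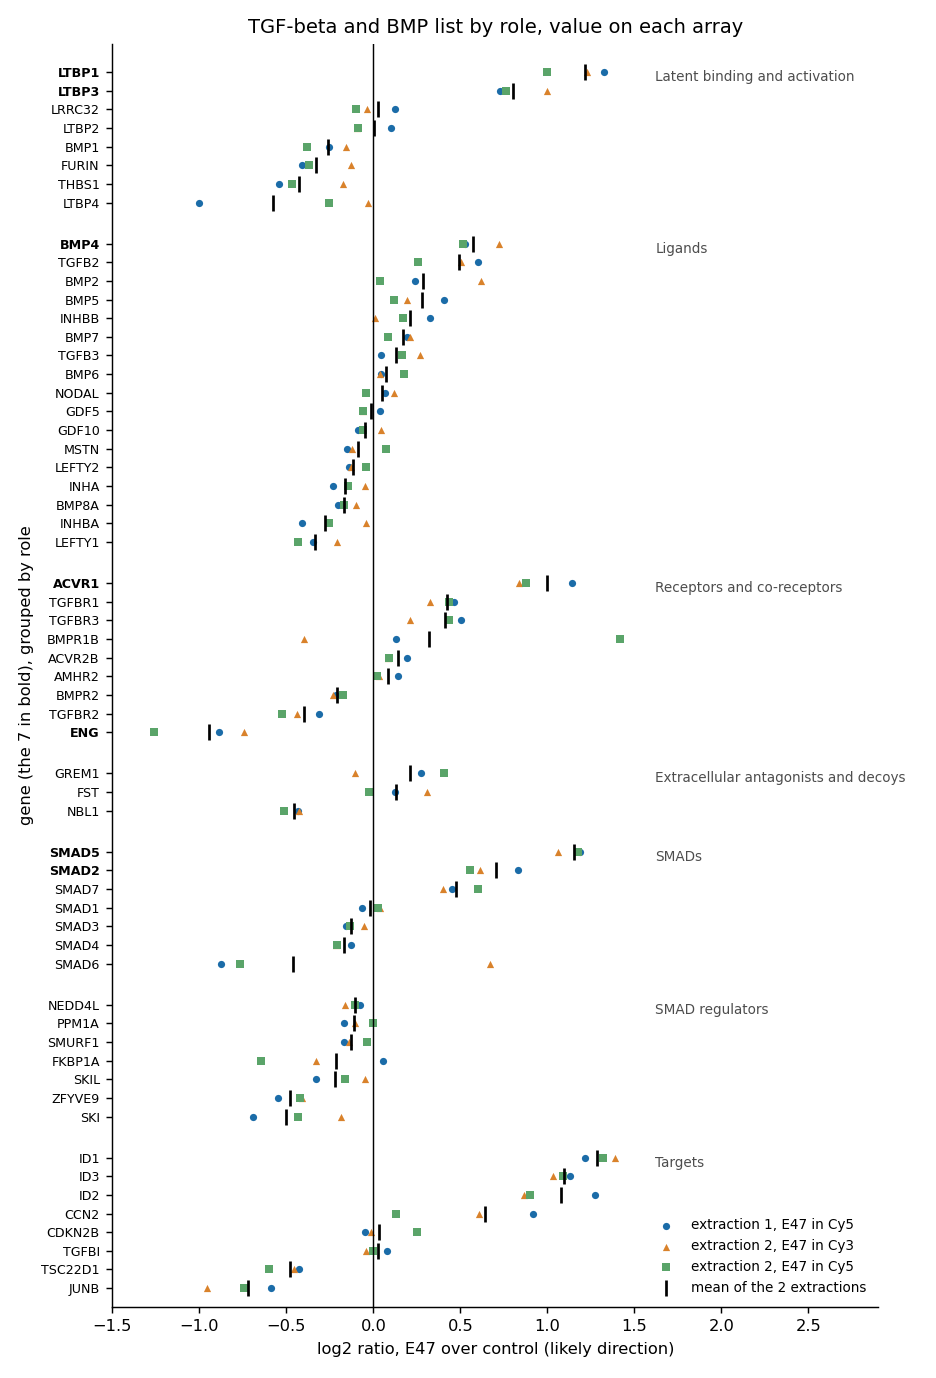
Log2 ratio of E47 over control (horizontal axis) for the 59 tested genes of the TGF-beta and BMP list, grouped by role, with 1 marker per array and a bar at the mean of the 2 extractions. The 7 genes, in bold, lie at the ends of their groups, as they were chosen to, and ID1, ID2 and ID3 lie highest among the targets.

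Outside the 7 genes, the calls of the list were among targets of the pathway. Of 101 genes listed by role, 62 were on the array and 59 were tested, of which 9 passed higher and 2 lower (18.6%), against 5.34% and 3.85% of all named genes. That count holds the 7 genes picked for their ratios. Without them 4 of 52 passed (7.69%), 3 higher and 1 lower, against 9.19% of all named genes. The median of the 52 was −0.03. All 4 were among the 8 targets tested. The 7 genes were picked as genes that passed, so the lack of other calls in their roles is no result about those roles.

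ID1, ID2 and ID3, inhibitors of helix-loop-helix factors that BMP signals induce in many cells, passed higher, ID1 on 1 clone alone. ID1 was at 1.21, 1.39 and 1.32 on the 3 arrays, ID2 at 1.27, 0.87 and 0.90, and ID3 at 1.13, 1.03 and 1.09. The means were 1.28 ± 0.10, 1.08 ± 0.27 and 1.09 ± 0.05 (SD, n = 2 extractions), with limma adjusted p-values of 0.0201, 0.0341 and 0.0203. Another ID1 clone, which lacked a value on at least 1 array, was at −3.57 and −3.05 on its 2 spots in extraction 1 and at 0.92 on 1 spot in extraction 2 with Cy3. With such spots kept, ID1 was at 0.11 and the limma adjusted p was 0.913. The clones of ID1 thus give it no common direction. In the fit that left out the Cy5 array of extraction 2, ID2 and ID3 had adjusted p-values of 0.0681 and 0.0501.

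JUNB, an AP-1 factor induced early by TGF-beta and BMP signals, fell. It was at −0.59, −0.96 and −0.74 on the 3 arrays, with a mean of −0.72 ± 0.18 (SD, n = 2) and a limma adjusted p of 0.0466. Its call was lost when the arrays were centred on their medians, when they were also scaled, when spots lacking a value were kept, and without the Cy5 array of extraction 2, where the adjusted p was 0.105. CCN2, connective tissue growth factor, was at 0.91, 0.61 and 0.13 and TGFBI, a matrix protein named for its induction by TGF-beta, had a mean of 0.03, and neither passed.

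Roles with no call were the extracellular antagonists and the regulators of SMADs. Of 3 antagonists tested, NBL1, a secreted BMP antagonist, had the largest ratio in size, at −0.44, −0.43 and −0.51 on the 3 arrays (mean −0.45 ± 0.03 (SD, n = 2), limma adjusted p of 0.0646). All 7 regulators of SMADs that were tested had means below 0, from −0.50 to −0.11. Of these, 6 were below 0 on all 3 arrays, as were 32.8% of all named genes. For SKIL and PPM1A this holds for the average over spots alone. Spots 15091 and 15092 of SKIL were above 0 on every array, and spot 21773 of PPM1A was at 0.06 in extraction 2 with Cy5. SKI, a co-repressor of SMADs, had the lowest mean, at −0.69, −0.19 and −0.43, with a limma adjusted p of 0.103. These are the values of 1 spot, the only SKI spot with a value on every array. Where its other spots had a value, they ran from −1.36 to 0.19.

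Markers of cell state were measured beside these genes. Of 8 epithelial markers listed, 6 were tested and all 6 fell, with means from −3.59 to −0.92. Of 8 markers of fibroblasts and mesenchyme, 4 were tested and 2 passed higher, FN1 at 2.29 and COL1A2 at 0.68. The clones of COL1A2 differed by 2.52 and in sign, so its mean gives no common direction either. PDGFRA was at −0.21 and below 0 on all 3 arrays, THY1 was at 0.02, and the median of the 4 was 0.35. Their part in the ratios of the 7 genes was not tested, and in RNA of whole cultures a change in the kind of cell and a change within each cell cannot be told apart.

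The genes closest to each of the 7 over the 3 arrays, by Euclidean distance among 5106 named genes with at least 2 spots outside the list, were of mixed kinds. BUB1B and MMP1 lay closest to LTBP1, at distances of 0.08 and 0.12 on the log2 scale, and RABGGTB and C1GALT1 to SMAD5, at 0.16 and 0.17. FKBP2 and OBI1 lay closest to ACVR1 (0.08 and 0.10), RAB8B and PPFIA4 to SMAD2 (0.07 and 0.09), and NUP155 and NDUFB3 to BMP4 (0.04 and 0.06). TUBA3C and TPM4 lay closest to the mean of LTBP3 (0.01 and 0.06), which joins its opposed clones, and PLEK2 and ANXA10 to ENG (0.13 and 0.17). The distance rests on 3 arrays that share 2 extractions.

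The calls of 5 of the 7 genes depended on 1 array, and those of BMP4 and LTBP3 also on the scaling and the spots kept. Without the Cy5 array of extraction 2, 2 of the 7 genes passed, LTBP1 at 1.28 and SMAD5 at 1.12, and the other 5 did not, at 0.86 for LTBP3, 0.63 for BMP4, 0.99 for ACVR1, −0.81 for ENG and 0.72 for SMAD2. The mean ratios kept their sign in all 7 genes, while the number of named genes that passed was 109 without that array, against 506 with it.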

How the data were processed

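The authors deposited 1 log ratio per spot and array, read here as log2. The signal correction, normalization and software remain not given in the sources used here. Column medians were −0.0051, 0.0027 and 7.67e-04, and the largest value, 7.80, exceeds what log10 values of a 16-bit scanner can reach (4.82), which leaves base 2 or the natural logarithm. The 3 columns correlated over spots with r from 0.613 to 0.769, the dye swap included, so no sign was turned. The arrays with E47 in Cy5, of different extractions, correlated most, at 0.769. The dye swap of the same RNA was at 0.671, and extraction 1 against extraction 2 with Cy3 at 0.613. Of 27648 spots, 25537, 25282 and 24771 had a value on the arrays of extraction 1, extraction 2 with Cy3 and extraction 2 with Cy5.

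The 23275 spots measured on every array were averaged per gene symbol of the platform annotation, in which 17488 spots have 1 symbol, 654 several and 9506 none. This gave 5508 named genes and 8500 unnamed spots. The dye swap was averaged, and limma 3.58.1 under R 4.3.3 (lmFit, then eBayes) tested each ratio against 0, 2-sided, with Benjamini-Hochberg adjustment over all 14008 features at 0.05. The fit was also run on values simulated from its own estimated variances, which cannot show whether its model suits these arrays. The precision is limited by 2 extractions and 1 residual degree of freedom, beside a prior of 2.71 degrees of freedom shared over all features. Of the named genes, 91.3% have their symbol, as all 7 genes do, in the RefSeq gene table of dog assembly UU_Cfam_GSD_1.0, used for names alone. Figures were drawn with matplotlib 3.10.9.

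The 7 genes and the list by role were chosen with earlier results of these data known. Besides the 7, the rule for named genes takes each gene of the list that passed, the largest ratio in roles without one, and the 2 closest genes to each of the 7. Alternatives changed the arrays used, the scaling, the handling of spots, the features tested, the eBayes setting and the threshold. No sequence was used here.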

Additional observations from a re-analysis of the deposited data

How the results depend on the processing

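All 7 genes kept the sign of their mean under each of 9 alternatives in the arrays, scaling and spots used. This is no measure of stability: with 2 extractions, leaving 1 out cannot move a mean by more than their SD, and other handling of spots cannot change a gene with 1 clone and no missing value. Values moved by more than that SD for LTBP3 with other handling of its spots (0.50 to 1.39) and for ENG without the Cy5 or without the Cy3 array of the dye swap (−0.81 and −1.07). Their median, 0.80, was 0.745 without the Cy3 array of extraction 2, 0.86 without its Cy5 array, 0.68 with spots lacking a value kept, 1.00 with the median over spots and 0.71 with the mean over clones. From 1 extraction alone it was 0.83 and 0.86.

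Counts of calls moved more. Named genes passing, 506, became 1008 with the 3 arrays as separate samples, 919 without the Cy3 array of extraction 2, 109 without its Cy5 array, 1175 when tested alone, 1244 at an adjusted p under 0.1 and 207 with at least 2-fold. In the same order, pathway genes passing, 11, became 18, 18, 3, 21, 21 and 5, and 7 with spots lacking a value kept. Without the 7 genes, 4 became 11, 11, 1, 14 and 14 under the first 5 of these, and 2 with such spots kept. Of the 7 genes, BMP4 and LTBP3 lost their call with scaled arrays and with such spots kept, LTBP3 with the mean over clones, and 5 with at least 2-fold. Without the Cy3 array of extraction 2, both arrays left carry E47 in Cy5, so dye and E47 cannot be told apart in that fit. Fewer or stricter data entered some of these fits by construction. Otherwise the cause was not tested.

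No paired analysis was possible because the arrays form 1 group against a common control. The extraction could not be fitted as a random block with 3 arrays, and promoter motifs were not analysed here.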
